A study of Mus musculus with 5 samples.

Results

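Camp, Ngp, Ltf, Lcn2, S100a8 and S100a9 were followed through 5 single-cell libraries of the mouse lung. They were 6 of the 42454 features counted in each library, taken by exact gene symbol, and they had been picked with results of these same data in view, so their levels are given as a description. Newborn C57BL/6J mice breathed air or hyperoxia, which was over 95% O2, for 3 days and then recovered in room air. Lungs were taken at postnatal day (pnd) 7 or 60, which gave 1 library for each of air at pnd7, hyperoxia at pnd7, air at pnd60 and hyperoxia at pnd60. The 5th library held cells of hyperoxia-exposed lungs at pnd7 that were sorted for C12FDG, a substrate that turns fluorescent when senescence-associated β-galactosidase cleaves it. That suspension was pooled from 3 mice, while the number of mice behind each other library was not stated, and no sorted air library was among the 5. With 1 library per condition, animal, library and treatment cannot be told apart, so no test between conditions was run and every interval below (95%) covers counting error only.

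The 6 genes encode proteins that neutrophils are known for. Neutrophil precursors in bone marrow first make the contents of primary granules such as myeloperoxidase and neutrophil elastase, then those of secondary granules, and the transcripts for granule proteins are largely switched off before the cell enters blood. Camp (the cathelicidin antimicrobial peptide), Ngp (neutrophilic granule protein), Ltf (the iron-binding protein lactoferrin) and Lcn2 (lipocalin 2, which binds the iron carriers of bacteria) belong to the secondary granule. S100a8 and S100a9 are the subunits of calprotectin, a calcium- and zinc-binding protein of the cytosol of neutrophils and monocytes that acts on the receptors Tlr4 and Ager when released. Lcn2 and Ltf are also made by epithelia.

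Camp, Ngp and Ltf lay on mouse chromosome 9 and S100a8 and S100a9 side by side on chromosome 3 of GRCm38.p6, the assembly named mm10. Camp occupied chr9:109847377-109849456 on the minus strand, Ngp chr9:110419808-110423012 on the plus strand and Ltf chr9:111019292-111042766 on the plus strand, a span of 1195390 bases that held 31 protein-coding genes with these 3 counted. S100a8 occupied chr3:90669071-90670034 (plus strand) and S100a9 chr3:90692630-90695721 (minus strand), with 0 protein-coding genes lying wholly between them. Lcn2 stood alone at chr2:32384637-32387739 on the minus strand. All 6 are protein-coding genes in RefSeq.

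The 250 bases before the start of the 3 granule genes that were detected in the same few barcodes, and of the calprotectin pair, follow from RefSeq (GRCm38.p6), 5′ to 3′ along each gene. Capitals mark matches on either strand to TTGCNNAA, a core of sites bound by C/EBP factors, and to GAGGAA, a core bound by PU.1. These motifs do not overlap in any of the 5 windows. TTGCNNAA was in 9.56% and GAGGAA in 23.3% of the 32851 RefSeq windows of the same length.
Camp: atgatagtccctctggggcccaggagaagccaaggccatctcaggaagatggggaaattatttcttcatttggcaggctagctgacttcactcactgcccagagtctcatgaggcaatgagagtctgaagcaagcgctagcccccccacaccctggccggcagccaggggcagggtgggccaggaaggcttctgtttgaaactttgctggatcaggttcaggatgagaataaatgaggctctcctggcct
Ngp: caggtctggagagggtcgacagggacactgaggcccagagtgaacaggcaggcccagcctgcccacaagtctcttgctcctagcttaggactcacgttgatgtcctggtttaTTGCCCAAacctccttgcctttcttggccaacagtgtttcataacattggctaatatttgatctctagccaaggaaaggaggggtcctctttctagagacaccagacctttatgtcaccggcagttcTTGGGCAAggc
Ltf: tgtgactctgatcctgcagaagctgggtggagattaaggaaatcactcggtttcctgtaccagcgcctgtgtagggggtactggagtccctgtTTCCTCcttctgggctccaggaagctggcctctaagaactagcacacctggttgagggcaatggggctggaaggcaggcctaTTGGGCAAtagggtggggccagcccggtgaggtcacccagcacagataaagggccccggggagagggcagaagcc
S100a8: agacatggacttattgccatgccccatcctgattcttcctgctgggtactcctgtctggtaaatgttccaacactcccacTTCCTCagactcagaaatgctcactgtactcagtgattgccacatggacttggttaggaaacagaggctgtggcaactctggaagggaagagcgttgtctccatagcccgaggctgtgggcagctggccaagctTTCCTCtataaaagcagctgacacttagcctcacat
S100a9: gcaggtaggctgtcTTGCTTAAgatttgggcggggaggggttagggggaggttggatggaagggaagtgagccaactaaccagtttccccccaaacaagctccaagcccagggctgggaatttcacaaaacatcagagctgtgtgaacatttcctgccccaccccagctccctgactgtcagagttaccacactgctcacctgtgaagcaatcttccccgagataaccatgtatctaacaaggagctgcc

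The windows are chr9:109849457-109849706 for Camp, chr9:110419558-110419807 for Ngp, chr9:111019042-111019291 for Ltf, chr3:90668821-90669070 for S100a8 and chr3:90695722-90695971 for S100a9. TTGCNNAA was found 2 times before Ngp, 1 time before Ltf and 1 time before S100a9, and not before Camp or S100a8. GAGGAA was found 1 time before Ltf and 2 times before S100a8, and not before Camp, Ngp or S100a9. A match describes letters in this window and says nothing of binding.

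The libraries held between 569 and 5632 barcodes and between 8006284 and 29873688 counts of unique molecules. Levels are CPM, counts scaled to a library total of 1000000, over barcodes with more than 700 and fewer than 8000 detected genes, which left 2314 barcodes in air and 1249 in hyperoxia at pnd7, 503 in the sorted library, and 4397 in air and 4756 in hyperoxia at pnd60. Each molecule gives 1 count whatever the length of its gene. Hemoglobin genes took 39.2% and 37.6% of all counts in air and hyperoxia at pnd7 but 0.644% to 3.31% in the other 3 libraries, and totals without them are among the alternatives given at the end. Barcode sequences shared with another library numbered 0 to 19 per library and held at most 37 counts of the 6 genes.

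Camp, Ngp and Ltf were present in 4 libraries and all but absent from the sorted one. Camp measured 22.0 CPM in air at pnd7, 65.2 CPM in hyperoxia at pnd7, 15.1 CPM in air at pnd60 and 0.181 CPM (0.0374 to 0.530) in hyperoxia at pnd60. In the sorted library Camp had 0 counts, which allows up to 0.380 CPM. Camp was thus highest in hyperoxia at pnd7 and lowest, among the unsorted libraries, in hyperoxia at pnd60, where it rested on 3 counts. Ngp followed the same order with 31.4, 72.8, 15.8 and 1.03 CPM in those 4 libraries and 0 counts in the sorted one. Ltf measured 11.1, 17.3, 15.3 and 2.18 CPM in the same order and 1 count in the sorted library. The Ltf levels in hyperoxia at pnd7 (15.2 to 19.7 CPM) and in air at pnd60 (13.4 to 17.5 CPM) did not differ beyond their intervals.

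Lcn2, S100a8 and S100a9 were more abundant and varied less among the unsorted libraries. Lcn2 measured 166 CPM in air and 321 CPM in hyperoxia at pnd7, 43.0 CPM in the sorted library, and 173 and 184 CPM in air and hyperoxia at pnd60. S100a8 measured 363, 485, 76.4, 243 and 367 CPM in that order. The S100a8 levels of air at pnd7 (354 to 372 CPM) and hyperoxia at pnd60 (358 to 377 CPM) overlapped. S100a9 tracked S100a8 in the unsorted libraries, with 357, 478, 235 and 375 CPM, but had 0 counts in the sorted one (up to 0.380 CPM allowed), where S100a8 had 604.

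**Figure D1:**
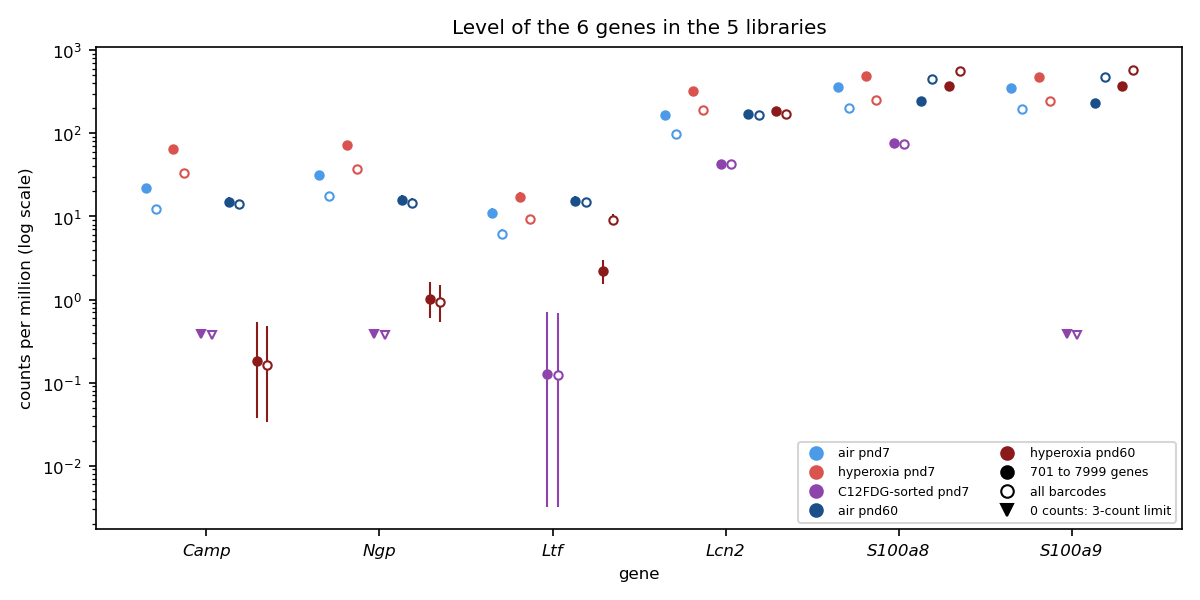
CPM of each gene in each library on a log axis. Filled points use barcodes with more than 700 and fewer than 8000 genes, and open points use all deposited barcodes. Bars are 95% Poisson intervals of counting error, and triangles mark the level allowed by 0 counts. Camp, Ngp and S100a9 sat at that limit in the sorted library. From filled to open points Ltf moved most, in hyperoxia at pnd60 (2.18 to 9.17 CPM), and S100a8 and S100a9 rose at pnd60.

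The genes differed in how many barcodes carried them. At least 1 of the 6 was counted in 672, 424, 239, 620 and 751 barcodes of air pnd7, hyperoxia pnd7, sorted, air pnd60 and hyperoxia pnd60, all deposited barcodes taken, and all 6 together were counted in 4, 3, 0, 3 and 0. Camp was found in 9, 3, 0, 3 and 2 barcodes of those libraries. The 3 barcodes with most Camp in air at pnd7 held 97.3% of its counts, and the 3 in hyperoxia at pnd7 held 100%. Lcn2 was instead spread over 18.0%, 21.1%, 3.38%, 9.53% and 10.7% of the barcodes within the gene limits. A level of Camp or Ngp in any unsorted library is thus the content of a handful of barcodes.

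Barcodes were assigned to 16 classes by fixed markers, none of which is among the 6 genes, to see which cells carried them. The description as neutrophil genes held for Camp, Ngp, S100a8 and S100a9 in the unsorted libraries, held for Ltf in 3 of these 4, and did not hold for Lcn2. Neutrophil-like barcodes, defined by Csf3r, Cxcr2, Retnlg, Ly6g, Mmp9, Mmp8, Cd177, Hdc, Clec4d and Il1r2, held 98.9%, 100%, 100% and 66.7% of Camp counts in air pnd7, hyperoxia pnd7, air pnd60 and hyperoxia pnd60, the last from 3 counts in all. Of Ngp they held 94.1% to 100%, of S100a8 93.5% to 99.0% and of S100a9 98% to 99.3%. Of Ltf they held 98.9%, 94.7% and 81.8% in the first 3 of those libraries and 0.595% in hyperoxia at pnd60. Of Lcn2 they held 4.36% to 9.24%. Lcn2 counts lay mainly in type II cell-like barcodes, which are the surfactant-making alveolar epithelium, at 88.6% to 91.5% in the unsorted libraries and 99.1% in the sorted one.

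**Figure D2:**
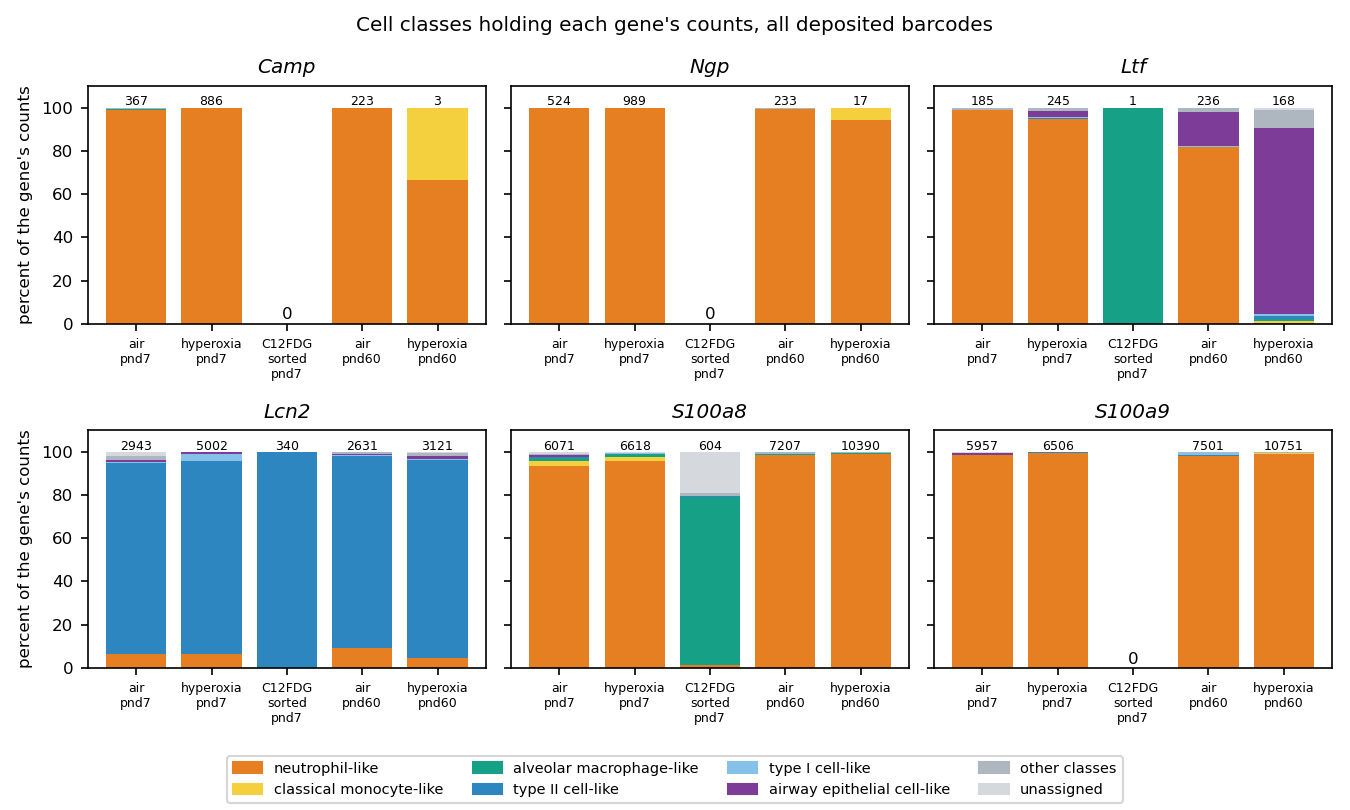
Percent of each gene's counts in each library by class of barcode, all deposited barcodes, with the total counts above each bar. Neutrophil-like barcodes filled the bars of Camp, Ngp and S100a9 wherever these genes had more than 3 counts, type II cell-like barcodes filled those of Lcn2, and alveolar macrophage-like barcodes most of S100a8 in the sorted library.

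The first comparison asked how the lung differed at pnd7 after neonatal hyperoxia. Camp was 2.96-fold higher in hyperoxia than in air (log2 ratio 1.57, 1.39 to 1.75) and Ngp 2.32-fold higher (1.21, 1.06 to 1.37). Ltf had a log2 ratio of 0.64 (0.36 to 0.93) and Lcn2 of 0.95 (0.88 to 1.02). S100a8 and S100a9 both had a log2 ratio of 0.42 (0.37 to 0.47). Thus 2 of the 6 genes passed 2-fold, both upward, where 0.183% of the 12595 genes with at least 100 counts in the pair of libraries did so upward and 0.802% downward. The genes were chosen from these values, so nothing is read from that count. Summed over the 6 genes the log2 ratio was 0.60 (0.57 to 0.63), and it was 0.47 without the barcode richest in these genes in each library.

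At pnd60, after recovery in room air, Camp, Ngp and Ltf had ratios of opposite sign to those of S100a8 and S100a9. Camp was lower in hyperoxia than in air, with a log2 ratio of -6.38 (-8.67 to -4.82) that rested on 3 counts against 223. Ngp was 15.4-fold lower (-3.94, -4.75 to -3.23) and Ltf 7.04-fold lower (-2.82, -3.37 to -2.30). S100a8 was higher by a log2 ratio of 0.60 (0.54 to 0.66) and S100a9 by 0.67 (0.61 to 0.73), while Lcn2 had 0.09 (0.01 to 0.16). Thus 3 of the 6 genes passed 2-fold, all downward, where 0.248% of 12928 genes passed downward and 0.271% upward. Without the richest barcode of each library the log2 ratios of Camp, Ngp and Ltf were -3.83, -2.66 and -1.75, and over all deposited barcodes that of Ltf was -0.69. Over all deposited barcodes S100a8 was 567 CPM in hyperoxia against 453 CPM in air, and S100a9 587 against 472 CPM. Both genes thus stayed higher in hyperoxia, by a smaller ratio than within the gene limits.

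In the C12FDG-sorted library all 6 genes were below their level in unsorted hyperoxia lungs of the same age. Camp was at least 172-fold lower, Ngp at least 192-fold lower and S100a9 at least 1260-fold lower, each bound set by a limit of 3 counts in the sorted library. Ltf had a log2 ratio of -7.09 (-12.40 to -4.60) from 1 count. Lcn2 (-2.90, -3.06 to -2.74) and S100a8 (-2.67, -2.79 to -2.54) were lower by less. All 6 genes passed 2-fold downward, as did 36.4% of 11345 genes, while 8.18% passed upward. The median log2 ratio of all genes in this comparison was -0.55, and scaling by the median of ratios would add 0.54 to each value. The marker rule for neutrophils was met by 3 of 569 barcodes (0.527%) in the sorted library and 14 of 2664 (0.526%) in unsorted hyperoxia. Those 3 held 8 S100a8 counts and 0 of Camp, Ngp, Ltf, Lcn2 and S100a9, and 2 of them lay near the score limit. They are given no cell type name, so the close shares are not read as equal shares of neutrophils. Alveolar macrophage-like barcodes were 305 of the 569 in the sorted library. The part of this makeup in the lower levels was not tested. The unsorted pnd7 libraries came from an earlier dataset, so sorting and dataset cannot be told apart.

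Age was compared within each exposure. In air no member passed 2-fold between pnd7 and pnd60, where 15.1% of 13003 genes passed upward and 9.34% downward. Ngp had the lowest log2 ratio (-0.99, -1.22 to -0.77) and Ltf had 0.47 (0.18 to 0.75), and the interval for Lcn2 (0.06, -0.02 to 0.14) included 0. The Ltf sign turned to -0.27 by the mean CPM per barcode, -0.39 with barcodes thinned to 1000 counts and -0.43 without barcodes that held markers of several classes. After hyperoxia Camp (-8.49, -10.77 to -6.94), Ngp (-6.15, -6.93 to -5.46) and Ltf (-2.99, -3.54 to -2.48) were lower at pnd60, 3 of the 6 genes past 2-fold, as were 9.47% of 12924 genes, with 19.1% upward. The Ltf call was lost over all deposited barcodes, where its ratio was -0.02, and its sign turned to 3.30 without the 10 barcodes of each library richest in the 6 genes. The calprotectin genes were lower at pnd60 by log2 ratios of -0.58 and -0.60 in air and of -0.40 and -0.35 after hyperoxia, for S100a8 and S100a9 respectively. These calprotectin signs turned with the gene limit. Over all deposited barcodes the ratios of S100a8 and S100a9 were 1.16 and 1.24 in air and 1.17 and 1.25 after hyperoxia.

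That turn came with a difference in how many neutrophil-like barcodes fell under the gene limit, and with a change in the pnd7 totals. Neutrophil-like barcodes numbered 17 and 14 in air and hyperoxia at pnd7, and 98 and 131 at pnd60, which is 0.401%, 0.526%, 1.91% and 2.33% of all barcodes. At pnd7 none had 700 or fewer genes, while at pnd60 these were 67 of 98 (68.4%, 58.2 to 77.4) in air and 72 of 131 (55.0%, 46.0 to 63.7) in hyperoxia. Among all barcodes the ages stood the other way, with 45.1% and 52.1% at pnd7 and 14.2% and 15.4% at pnd60 having 700 or fewer genes. Of barcodes within the gene limits, neutrophil-like ones were 0.735% and 1.12% at pnd7 and 0.705% and 1.24% at pnd60. The median neutrophil-like barcode held 1109 and 1067 genes at pnd7 and 648 and 682 at pnd60. The lower gene limit therefore removed 50.3% of S100a8 and 53.8% of S100a9 counts in air at pnd60, and 41.5% and 42.3% in hyperoxia, against at most 0.379% of either gene at pnd7. At pnd7 the totals changed instead, with hemoglobin at 3.38% and 2.22% of counts within the limits and 39.2% and 37.6% over all barcodes. From within the limits to all barcodes S100a8 went from 363 to 203 CPM in air and from 485 to 252 CPM in hyperoxia at pnd7. At pnd60 it went from 243 to 453 CPM in air and from 367 to 567 CPM in hyperoxia. The part of each change in the turn was not tested.

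**Figure D3:**
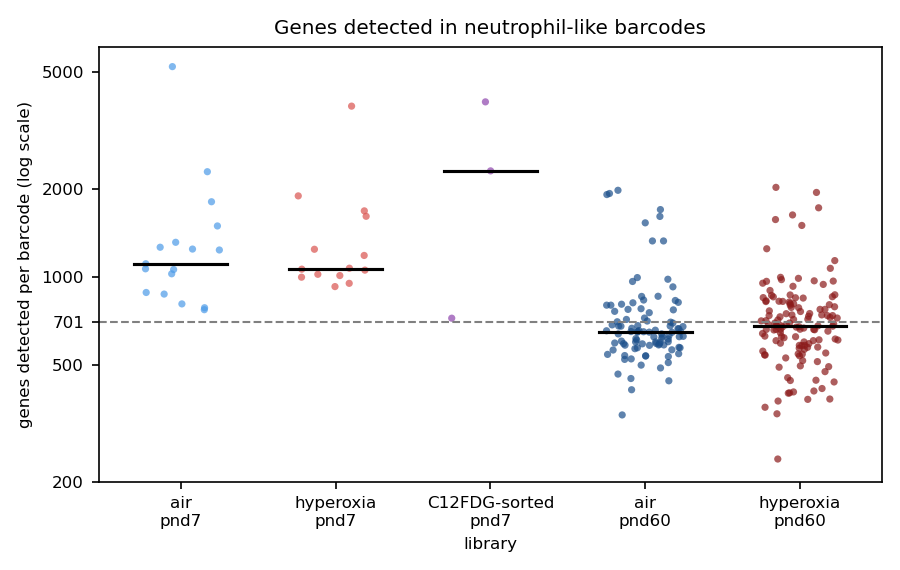
Genes detected in each neutrophil-like barcode on a log axis, by library, with a dashed line at the lower gene limit and a bar at each median. Every barcode at pnd7 lay above the line, and 67 of 98 in air and 72 of 131 in hyperoxia at pnd60 lay below it; horizontal jitter only separates the points.

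Within neutrophil-like barcodes S100a8 and S100a9 ranked first in every unsorted library by fold over the other barcodes, with a constant added to both levels. Genes with 100% of their counts in these barcodes, such as Ngp in air at pnd7, have no finite fold without that constant. S100a8 took 63908 CPM in air and 97230 CPM in hyperoxia at pnd7, and 51737 and 56705 CPM at pnd60, and S100a9 took 65969, 98961, 53542 and 58767 CPM. Both genes were counted in all 17 barcodes in air and in 13 of 14 in hyperoxia at pnd7, in 98 of 98 in air at pnd60, and in 128 (S100a8) and 130 (S100a9) of 131 in hyperoxia at pnd60. The median barcode held 436 and 455 counts of the pair at pnd7 and 111 and 130 at pnd60, from shallower barcodes. Per 10000 counts the medians were 1698 and 1651 at pnd7 and 890 and 1060 at pnd60. The pooled log2 ratio of hyperoxia to air was 0.61 for S100a8 and 0.59 for S100a9 at pnd7, although the medians per 10000 counts were close there, and 0.13 for both genes at pnd60. In pnd7 hyperoxia 1 barcode gave 1971 of the 6345 S100a8 counts of these barcodes.

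Camp, Ngp and Ltf divided the neutrophil-like barcodes into a few that held many counts and the rest that held nearly none. With 10 or more counts of the 3 genes summed as the limit, 4 of 17 barcodes in air (23.5%, 6.81 to 49.9) and 3 of 14 in hyperoxia (21.4%, 4.66 to 50.8) passed at pnd7. At pnd60 there were 3 of 98 in air (3.06%, 0.636 to 8.69) and 1 of 131 in hyperoxia (0.763%, 0.0193 to 4.18). Just inside the limit were barcodes with 16, 17 and 20 counts, and just outside it, 1 barcode with 5 counts and others with at most 1. A count of 0 for all 3 genes was found in 12, 10, 94 and 128 of the neutrophil-like barcodes of the 4 libraries. The barcodes past the limit held 99.0%, 99.3% and 93.5% of all Camp, Ngp and Ltf counts in air pnd7, hyperoxia pnd7 and air pnd60, but 9.04% in hyperoxia pnd60.

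These 11 barcodes can be given one by one. In air at pnd7 the first held 172 Camp, 307 Ngp and 96 Ltf counts, the second 131, 149 and 54, the third 54, 56 and 26, and the fourth 5, 8 and 7. In hyperoxia at pnd7 the first held 526, 525 and 67, the second 174, 250 and 80, and the third 186, 212 and 85. In air at pnd60 they held 185, 137 and 118, then 29, 93 and 69, then 9, 2 and 5. The barcode in hyperoxia at pnd60 held 2 Camp, 15 Ngp and 0 Ltf counts. The 3 granule genes thus came together in the same barcodes, except in hyperoxia at pnd60. Across all barcodes of a library the correlation of Camp with Ngp was 0.98 in both pnd7 libraries, 0.96 in air and 0.88 in hyperoxia at pnd60, values set by these few barcodes, and that of Camp with Ltf was 0.98, 0.92, 0.81 and -0.0010 in the same order. In the richest barcode of hyperoxia at pnd7 the 6 genes made up 47.6% of 10890 counts.

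**Figure D4:**
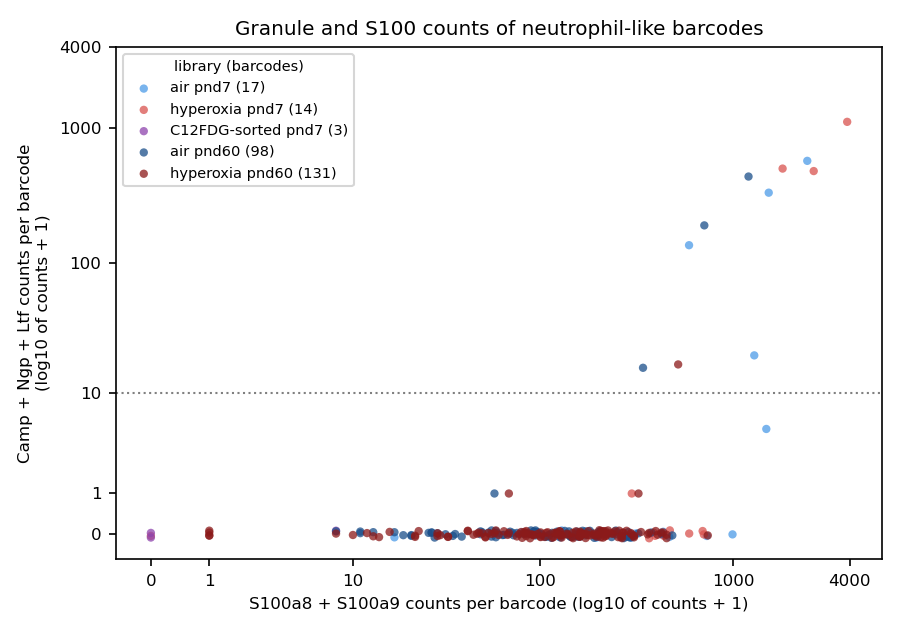
Counts of Camp, Ngp and Ltf summed (vertical axis) against counts of S100a8 and S100a9 summed (horizontal axis) in each neutrophil-like barcode, both as log10 of count plus 1, with a dotted line at 10 and a small vertical jitter at low counts. The 11 barcodes above the line, 10 of them from the pnd7 libraries and adult air, lay above the band of barcodes near 0.

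Other neutrophil genes were set beside this division as a description, pooled over the 4 unsorted libraries, with 11 barcodes past the limit and 249 others. Since 7 of the 11 came from pnd7, and most of the 249 from pnd60, age enters the pooled values. Csf3r, Cxcr2, Retnlg, Ly6g, Mmp9, Mmp8, Cd177, Hdc, Clec4d and Il1r2 had helped to choose the class. Higher in the granule-rich barcodes were Cebpe, a transcription factor needed for secondary granules, at 448 against 57.3 CPM (log2 ratio 2.97), and the granule or membrane genes Chil3 (6.13), Cd177 (4.81), Cybb (3.86) and Mmp8 (2.58). Of the same list of 12 other secondary and tertiary granule genes, Slpi (-1.16), Adam8 (-0.85), Mmp9 (-0.47) and Hp (-0.26) were on the other side when pooled. The list summed had 0.86. Within single libraries Mmp9 and Hp were higher in the granule-rich barcodes except in hyperoxia at pnd7. There Mmp9 was 673 against 2432 CPM and Hp 673 against 2229 CPM. Adam8 was higher in air at pnd7 and hyperoxia at pnd60 and otherwise lower, and Slpi was lower in every unsorted library. Lcn2 was 9392 against 558 CPM (4.07) and was counted in 11 of 11 against 90 of 249 barcodes. S100a8 (1.15) and S100a9 (1.14) were higher by less.

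Lower in the granule-rich barcodes were Il1b, the inflammatory cytokine interleukin 1β, with 1 count against 3830 (log2 ratio -9.41, -14.72 to -6.93), and Csf3r, the receptor for granulocyte colony-stimulating factor, at 252 against 3421 CPM (-3.76). Cebpb (-2.97), Il1r2 (-3.81), Clec4d (-4.87) and Selplg (-2.32) were lower as well. Although Cebpe was higher, its list of 7 transcription factors of granulocyte maturation summed had -1.30. Cebpd (-1.58), Spi1 (-0.69) and Runx1 (-0.55) of that list were lower, and the interval for Runx1 (-2.24 to 0.79) included 0. Within single libraries Cebpd was higher in air at pnd7 (317 against 240 CPM). Spi1 was higher in hyperoxia at pnd60 (1379 against 1125 CPM), and Runx1 in hyperoxia at both ages. The surface list summed had -1.94 although its members Ly6g (2.58) and Fpr2 (0.74) were higher. Fpr2 was lower within hyperoxia at pnd7, at 112 against 338 CPM. The late list summed had 0.16, with Ifitm6 (3.35), Stfa2 (3.03), Wfdc21 (2.12) and Stfa2l1 (1.86) higher. Its members Hdc (-2.34), G0s2 (-1.07), Lrg1 (-0.96) and Asprv1 (-0.29) were lower, as was Il1b. In air at pnd60 the pooled direction was not seen for Stfa2l1, at 199 against 1068 CPM, or Stfa2, with 0 against 1 count. Nor was it seen in hyperoxia at pnd60, where Stfa2l1 was 0 against 821 CPM and Stfa2 had 0 counts on both sides. In hyperoxia at pnd7 Stfa2l1 was 6956 against 6181 CPM, which is close. Within air at pnd7 alone Il1b was 45.2 against 1890 CPM, Csf3r 271 against 1125 CPM, Cebpe 678 against 75 CPM and Cybb 2804 against 510 CPM. The pooled directions of these genes were thus seen inside that library, unlike those of Hdc, Lrg1 and Cebpd. In hyperoxia at pnd7 Cebpe was 449 against 372 CPM, which is close, while Il1b was 0 against 6215 CPM. The granule-rich barcode of hyperoxia at pnd60 had 0 counts of Cebpe and of Chil3. Of the primary granule genes, Elane, Mpo, Prtn3, Ctsg and Ms4a3 had 0 counts in neutrophil-like barcodes, and Fcnb had 6 counts in 2 of the 11 barcodes. Over all barcodes of the 5 libraries Mpo had 0 and Elane 2 counts, so their absence is not particular to these barcodes. Mki67, a marker of dividing cells, had 0 counts in the 11 and was counted in 2 of the 249 others, so no difference is read.

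At pnd7, macrophage-like and monocyte-like barcodes held S100a8 with little or no S100a9. Over all barcodes outside the neutrophil-like class, S100a8 and S100a9 had 396 and 99 counts in air and 273 and 48 in hyperoxia at pnd7, 596 and 0 in the sorted library, and 101 and 147 in air and 104 and 91 in hyperoxia at pnd60, so at pnd60 the totals of the pair were closer to each other. In neutrophil-like barcodes S100a8 made up 49.1% to 49.6% of the counts of the pair in the unsorted libraries. In alveolar macrophage-like barcodes it had 83 counts against 3 of S100a9 in air at pnd7 (96.5%, 90.1 to 99.3) and 93 against 4 in hyperoxia (95.9%). S100a8 was counted in 36 of 75 and 27 of 55 of these barcodes and S100a9 in 3 and 4. Classical monocyte-like barcodes at pnd7 held 134 S100a8 and 0 S100a9 counts in air (13 of 29 barcodes) and 100 and 14 in hyperoxia (13 of 25), all 14 in 1 barcode. That barcode also held 57 of the 100 S100a8 counts, and in air the richest barcodes held 44 and 35 of the 134. The part of free RNA in these counts was not tested. Airway epithelial-like barcodes in air at pnd7 held 49 S100a8 and 45 S100a9 counts (52.1%), in 27 and 21 of 171 barcodes.

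The C12FDG-sorted library held 604 S100a8 and 0 S100a9 counts. S100a8 was counted in 225 of 503 barcodes (44.7%), with at most 16 counts in any. Alveolar macrophage-like barcodes held 469 of these counts, in 179 of 305 barcodes (58.7%), and barcodes without a class held 114. The S100a8 level of the alveolar macrophage-like class was 87.9 CPM in the sorted library, 117 CPM in unsorted hyperoxia and 82.3 CPM in air at pnd7. By CPM the sorted class was below its unsorted counterpart (log2 ratio -0.42, -0.74 to -0.08), and the hyperoxia class above that in air (0.51, 0.07 to 0.96), both differences of under 2-fold. Depth was similar, at medians of 17087, 16079 and 13392 counts per barcode. With each barcode thinned to 1000 counts, S100a8 was left in 6.60%, 4.35% and 8.0% of these barcodes, so both directions turned and no order is read from either measure. These shares stood against 0 of 167 endothelial-like barcodes in air (which allows up to 1.80%) and 1 of 215 in hyperoxia at pnd7, a class that should lack the gene. Endothelial-like barcodes before thinning carried S100a8 in 0.538% and 1.55%, at median depths of 5009 and 3919 counts.

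At pnd60 S100a8 was scarce in the same classes. Alveolar macrophage-like barcodes held 17 counts in 16 of 183 barcodes in air (11.6 CPM) and 18 counts in 16 of 208 in hyperoxia (11 CPM), with log2 ratios to pnd7 of -2.83 and -3.42. Classical monocyte-like barcodes went from 634 to 4.81 CPM in air and from 513 to 2.54 CPM after hyperoxia, where 1 barcode held 57 of the 100 counts at pnd7. The intervals of these age ratios were -3.68 to -2.07 and -4.23 to -2.68 for the macrophage-like and -9.34 to -5.46 and -10.72 to -5.77 for the monocyte-like class. Thinned to 1000 counts, 0.549% and 0.508% of alveolar macrophage-like barcodes kept S100a8 at pnd60, against 1 of 782 and 4 of 799 endothelial-like barcodes, so at that depth the share in air and hyperoxia could not be set apart from background. Without thinning, the endothelial-like level was 1.96 and 2.62 CPM, below that of the alveolar macrophage-like class. Neutrophil-like barcodes, by contrast, kept S100a8 at 51737 CPM or more at both ages.

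**Figure D5:**
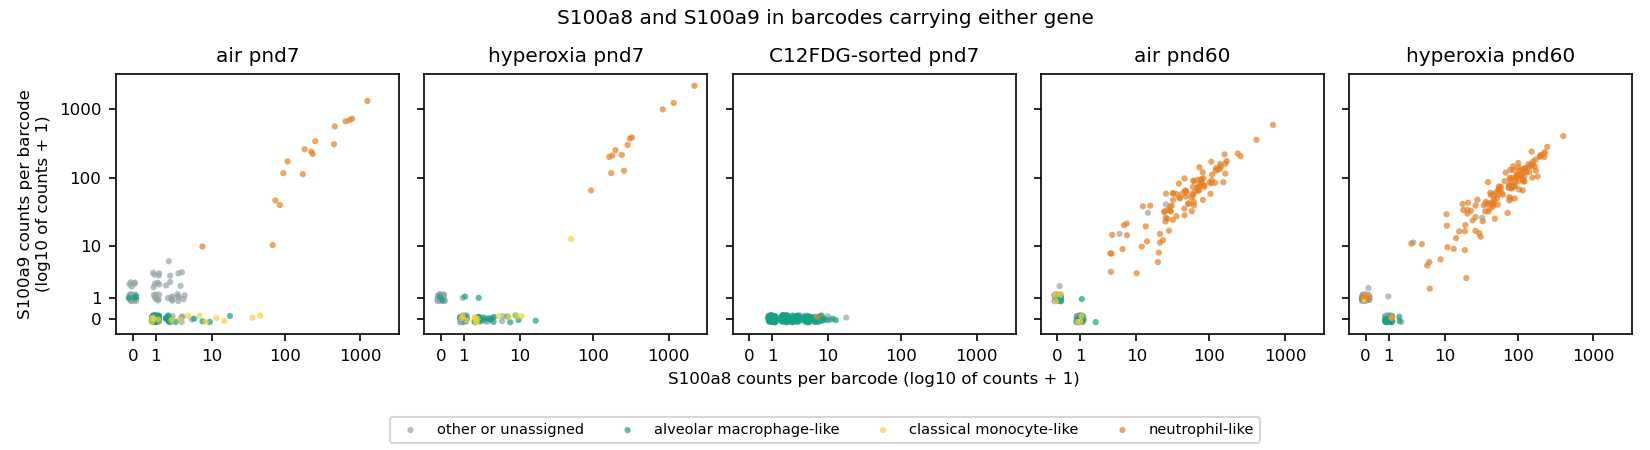
Counts of S100a8 against S100a9 in each barcode, 1 panel per library, as log10 of count plus 1 with a small jitter at low counts. Neutrophil-like barcodes followed the diagonal in the unsorted libraries, most alveolar macrophage-like barcodes with S100a8 lay along its axis, and in the sorted library all 225 barcodes with S100a8 had no S100a9.

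Lcn2 in these lungs was mainly an epithelial transcript. In type II cell-like barcodes it measured 522 CPM (503 to 543) in air and 937 CPM (909 to 965) in hyperoxia at pnd7, 871 CPM (780 to 969) in the sorted library, and 781 (749 to 813) and 853 CPM (822 to 885) in air and hyperoxia at pnd60. Air at pnd7 was the lowest of the 5 and stood apart from the others, which lay between 781 and 937 CPM. The log2 ratio of hyperoxia to air was 0.84 (0.77 to 0.91) at pnd7 and 0.13 (0.05 to 0.21) at pnd60. It was 0.58 (0.50 to 0.66) for pnd60 to pnd7 in air and -0.13 (-0.20 to -0.07) after hyperoxia.

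The share of type II cell-like barcodes with Lcn2 was also lowest in air at pnd7. It was 55.8% (354 of 634) in air at pnd7 and 80.6%, 83.3%, 84.4% and 81.9% in hyperoxia pnd7, sorted, air pnd60 and hyperoxia pnd60. Depth differed between these barcodes, with a median of 2909 counts in air at pnd7 and 6266 to 18158 in the others. Thinned to 1000 counts the shares were 29.4% in air at pnd7 and 42.5% to 46.0% in the other 4, so air at pnd7 remained the lowest at equal depth. Endothelial-like barcodes thinned alike had Lcn2 in 0 of 167 and 0 of 215 at pnd7 (which allows up to 1.80% and 1.40%) and in 2 of 782 and 2 of 799 at pnd60. The sorted value came from 18 barcodes and did not differ from unsorted hyperoxia beyond its interval (-0.27 to 0.06). Neutrophil-like barcodes held 183, 333, 243 and 136 Lcn2 counts in the unsorted libraries, a level of 750 to 5103 CPM. In hyperoxia at pnd7 1 type I cell-like barcode with 11285 genes, over the limit, held 144 Lcn2 counts.

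Ltf was counted in airway epithelial-like barcodes at pnd60. These held 37 Ltf counts in 7 of 33 barcodes in air and 144 in 10 of 35 in hyperoxia, against 0 of 171 barcodes in air (up to 5.02 CPM allowed) and 7 counts in 1 of 37 in hyperoxia at pnd7. None of the airway-like barcodes with 10 or more Ltf counts, 1 in air and 2 in hyperoxia at pnd60, had a count of Camp, Ngp, S100a8 or S100a9. The level was 56.2 CPM in air and 116 CPM in hyperoxia (log2 ratio 1.04, 0.51 to 1.60), and 1 barcode in hyperoxia held 102 of the 144 counts. That barcode had 9139 genes, so under the limit of 8000 genes the levels were 66.1 CPM in air and 42.8 CPM in hyperoxia and the order turned. Of 168 Ltf counts in hyperoxia at pnd60 over all barcodes, 126 lay above that limit.

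Lists of related genes were set beside the 6. In hyperoxia against air at pnd7, 2 of 11 other secondary and tertiary granule genes with at least 100 counts passed 2-fold, Chil3 upward (1.21) and Slpi downward (-1.22), and the list's median log2 ratio was 0.06 where that of all genes was -0.02. Of 10 other late neutrophil genes Lrg1 passed (1.05). These ratios cover all cell classes. Over all barcodes, granule-rich and other neutrophil-like ones held 8 and 3 of 193 Lrg1 counts in air and 1 and 11 of 335 in hyperoxia. Of Chil3 they held 21 and 2 of 519 in air and 52 and 0 of 920 in hyperoxia. Of Slpi they held 23 and 102 of 1406 in air and 40 and 146 of 532 in hyperoxia. Most counts of these genes thus lay in other barcodes. None of 5 transcription factors of granulocyte maturation, 7 surface genes or 10 other S100 genes passed. The same held for 7 receptors of the secreted proteins with at least 100 counts, such as Tlr4. Ager, with 10 and 14 counts over all barcodes of air and hyperoxia at pnd7, was under that limit. It was also a fixed marker of the type I cell-like class, which had 82 and 43 barcodes in those libraries. Why it had so few counts was not tested, so they are not read as its level in lung. None of the 6 primary granule genes reached 100 counts in any comparison. Over these lists 2 of 49 genes passed 2-fold upward and 1 downward at pnd7, where 0.183% and 0.802% of all genes did. At pnd60 the late gene Retnlg (1.21), a neutrophil resistin-like gene, Ifitm6 (1.02) and the surface gene Il1r2 (1.01) passed upward. Granule-rich and other neutrophil-like barcodes held 14 and 2 of 158 Ifitm6 counts in air and 2 and 16 of 362 in hyperoxia at pnd60. Of Retnlg they held 49 and 383 of 444 in air and 54 and 742 of 811 in hyperoxia. Of Il1r2 they held 1 and 86 of 109 in air and 1 and 127 of 159 in hyperoxia. None of 12 other granule genes passed at pnd60 (median 0.13 against 0.01 for all genes), where Camp, Ngp and Ltf were lower. Over the lists 3 of 48 genes passed upward and 0 downward at pnd60, where 0.271% and 0.248% of all genes did. The lists were chosen with earlier results of these data known, so nothing is read from these counts.

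In the sorted library against unsorted hyperoxia the lists went both ways, with 19 of 47 genes past 2-fold upward and 17 downward, where 8.18% and 36.4% of all genes were. Of 11 other granule genes 5 passed upward, among them Chil3 (3.03) and Cybb (2.11), and 4 downward, Mmp9 (-3.50), Hp (-4.04), Pglyrp1 (-2.85) and Ltb4r1 (-2.61). Of the late genes 6 of 8 passed downward, with Retnlg, Stfa2 and Stfa2l1 at 0 counts, and Wfdc21 (2.30) and Il1b (1.26) upward. Of 10 other S100 genes S100a1 (1.68) and S100a10 (1.18) passed upward and 4 downward. Chil3, Cybb, Spi1 (2.50) and Clec4d (4.73) are also expressed by macrophages, and Chil3 is a marker used for the alveolar macrophage-like class that made up 305 of the 569 sorted barcodes. Between the ages, 13 of 50 listed genes passed 2-fold upward and 4 downward in air, where 15.1% and 9.34% of all genes did, and 19 of 52 upward and 4 downward after hyperoxia, where 19.1% and 9.47% did. They included Chil3 (4.84 and 4.07) and Lrg1 (3.59 and 2.65) upward and S100b (-3.88 and -2.71) and S100a14 (-2.47 and -3.02) downward.

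Among genes with at least 50 counts in each library, those most like the 6 summed were mostly genes of type II cells. Across all barcodes of a library, the median over 5 libraries of Pearson's r with the summed 6 genes was highest for Slpi (0.49), Arg2 (0.45), Chil1 (0.43), Lamp3 (0.41), Slc34a2 (0.40), Sftpa1 (0.40), Sfta2 (0.39), Mmp8 (0.39), Sftpd (0.38) and S100g (0.38), among 8319 genes with at least 50 counts in each library. Barcodes share their library and its depth range, so these values are a description. The count limit also left out neutrophil genes that were scarce in the sorted library, so these could not be ranked. Among them were Retnlg with 0 counts there, Mmp9 with 5, Csf3r with 30 and Cxcr2 with 45. For Slpi r ranged from 0.11 in the sorted library to 0.62 in hyperoxia at pnd60. Lamp3, Slc34a2, Sftpa1 and Sftpd are genes of surfactant-making cells, where Lcn2 was found, and Mmp8 is a neutrophil granule gene.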

How the data were processed

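The authors deposited, for each of 5 samples, a matrix of unnormalized whole-number counts of unique molecules per gene and barcode, made from 10x Chromium 3′ libraries with Cell Ranger (version not given in the sources used here) and mm10, which the submitters' processing notes name with Seurat 3.2.1. The matrix headers name software version 3.1.0. Raw counts were used. Per the study's methods cells with 700 to 8000 genes were kept, applied here as more than 700 and fewer than 8000 without the mitochondrial limit of 5%, since 2 mitochondrial features were found. Python 3.11.15, numpy 2.4.6, scipy 1.17.1, pandas 2.3.3 and matplotlib 3.10.9 were used.

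CPM is counts over the summed counts of the barcodes taken. Intervals are exact Poisson (levels), exact Clopper-Pearson (shares) and conditional binomial (ratios) at 95%, and a count of 0 allows 3 counts. They leave out all spread between animals and libraries, and since a condition was a single library, no test was run. A gene counted as past 2-fold with at least 100 counts in both libraries together.

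Barcodes were classed by 109 fixed markers in 16 classes (1 marker had no feature), by the largest −log10 score of summed marker counts of at least 3 with at least 3 distinct markers detected. No doublet caller was run. Instead, barcodes with 2 or more markers of each of several classes (44.9% to 69.1% of those kept) were left out as an alternative. Neutrophil-like barcodes are those of that class. Its 3 barcodes in the sorted library, 2 of them near the score limit, are given no cell type name.

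The members, the gene lists and the markers were chosen with earlier results of these data known. Genes named are the 6 members, listed genes past 2-fold or among those with most counts, the 10 genes with the highest median correlation, and class markers. Genes compared between granule-rich and other neutrophil-like barcodes were picked from the lists, with Mki67, after their values were seen. Ratios and classes were tried on simulated counts. The class trial drew from the summed profile of barcodes already classed by the same rule, so it is no independent check. The ratio trial drew Poisson counts for each gene, so it does not cover counts held by a few barcodes. Alternatives covered barcode limits, scaling, thinning to 1000 counts, barcode weights, shared and mixed barcodes, and the richest barcodes. For classes they covered other marker rules, and for shares a limit of at least 3 counts. RefSeq windows were read by script.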

Additional observations from a re-analysis of the deposited data

Results flagged for a closer look

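Camp, Ngp and Ltf had log2 ratios of hyperoxia to air of opposite sign at the 2 ages. Camp was 1.57 at pnd7 and -6.38 at pnd60, Ngp 1.21 and -3.94, and Ltf 0.64 and -2.82. Each value compares 1 library with 1 library, and the difference between the ages was not tested. At pnd60 the hyperoxia library held 3 Camp and 17 Ngp counts, and in the other 3 unsorted libraries 3 or 4 neutrophil-like barcodes held 93.5% to 99.3% of the counts of the 3 genes.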

How the results depend on the processing

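Single barcodes and the gene limits set how far these ratios can be read. For the 6 genes summed, all deposited barcodes gave log2 ratios of 0.52 (hyperoxia to air, pnd7), 0.24 (pnd60), -2.71 (sorted to unsorted), 1.08 (age, air) and 0.79 (age, hyperoxia), both age ratios with the sign turned. A lower limit of over 200 genes gave 0.26 (pnd60), -3.39 (sorted), and the turned age values 0.53 and 0.18. Totals without hemoglobin gave -0.49 and -0.66 for age, and median-of-ratios scaling -3.05 (sorted), -0.67 and -0.92 (age). The mean CPM per barcode gave 0.69, 0.81, -4.48 and -0.74 for the first 4 comparisons, and thinning to 1000 counts 0.68, 0.83, -4.58, -0.73 and -0.59 for the 5. Without mixed barcodes the 5 values were 0.88, 0.95, -4.82, -1.24 and -1.17. Without the 10 richest barcodes they were 0.96 (pnd60), -2.28 (sorted), and 0.40 and 0.78 (age, turned). Without the single richest barcode, an alternative chosen after seeing the data, they were 0.47, 0.60, -3.24, -0.40 and -0.26.

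Single genes turned sign 22 times among 308 values. Without the 10 richest barcodes S100a8 and S100a9 became -0.15 and -0.46 at pnd7, S100a8 0.44 in the sorted comparison, S100a8 and S100a9 0.44 and 1.27 for age in air, and Ltf, S100a8 and S100a9 3.30, 2.10 and 3.12 for age after hyperoxia. Over all barcodes the age values in air were 0.19 (Camp), 1.16 (S100a8) and 1.24 (S100a9), and after hyperoxia 1.17 (S100a8) and 1.25 (S100a9). With over 200 genes S100a8 and S100a9 were 0.60 and 0.69 for age in air and 0.53 and 0.60 after hyperoxia. Ltf for age in air became -0.27 by mean CPM per barcode, -0.39 thinned and -0.43 without mixed barcodes. Without the single richest barcode S100a8 and S100a9 became 0.019 and 0.063 for age after hyperoxia. The counts of listed genes past 2-fold (3, 3, 36, 17 and 23 in the 5 comparisons) were 8 and 7 in the first and second when 1 count in each library was enough, and 0, 0, 22, 8 and 8 at 4-fold. Leaving out shared barcodes or applying the 5% mitochondrial limit moved no ratio beyond its interval. The lower gene limit adds, by construction, barcodes with 700 or fewer genes, and the cause of the other changes was not tested. No paired analysis was possible because no condition had more than 1 library. Some alternatives gave no value for genes left with too few counts. Class levels moved beyond their intervals in 63 of 207 values under other class rules or within the gene limits, and shares of barcodes in 72 of 210. Taking the class with most distinct markers gave 110, 89 and 386 alveolar macrophage-like barcodes in air pnd7, hyperoxia pnd7 and sorted, against 75, 55 and 305. Neutrophil-like barcodes then numbered 16 and 14 at pnd7 and 99 and 128 at pnd60 in air and hyperoxia.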

Other observations

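Neutrophil-like barcodes at the 2 ages differed in the stefin A and cystatin genes, inhibitors of cysteine proteases that are near-identical copies of each other, so that reads may be split among them uncertainly. These genes were chosen after their values were seen. Stfa1 took 27388 CPM of neutrophil-like barcodes in air and 32042 CPM in hyperoxia at pnd7, against 146 and 49.6 CPM at pnd60. Cstdc5 took 23255 and 33544 CPM at pnd7 and 1 count in each pnd60 library. Cstdc4 was 10800 and 12719 CPM at pnd7 and 517 and 788 CPM at pnd60, and Stfa2l1 5496 and 6605 CPM against 1005 and 805 CPM. Stfa3 took 2917 and 3448 CPM at pnd7 and had 0 counts in 98 and 131 barcodes at pnd60. At pnd7 Stfa1 was counted in all 17 and all 14 barcodes, so it was not confined to the few barcodes rich in granule genes. Neutrophil-like barcodes were shallower at pnd60, and age and library cannot be told apart.

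Among alveolar macrophage-like barcodes of the sorted library, the 179 with S100a8 were compared with the 126 without it over 5525 genes, as values with no test. Median depth was 17694 against 16298 counts. Inhba, a subunit of activin A, was 57.8 against 25.7 CPM, Apoe 184 against 84.8 CPM and Il7r 38.5 against 16.5 CPM. Il1b was 48.6 against 154 CPM, and Rrm2, a gene of DNA synthesis, 31.2 against 88.7 CPM. These genes were taken from those with the largest ratios on either side. By share of barcodes Il1b and Inhba went the other way. Il1b was counted in 35 of the 179 barcodes with S100a8 and 14 of the 126 without it, and Inhba in 25 and 20.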
